A study of Mus musculus with 74 samples.

Results

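Potassium channel genes were followed through every measurement made in mouse quadriceps after loss or inhibition of BCL6. A gene was taken as a member where its symbol began with Kcn, then letters and a digit, and it was protein-coding. Of 97 matching symbols, 2 antisense or overlapping transcripts named os or ot1 and 2 noncoding genes were left out, so that 93 of the 24940 genes in the tables were members. By the structure of their products, 30 were pore subunits of voltage-gated channels, 10 were silent voltage-gated subunits, 16 were auxiliary subunits, 15 were inward rectifiers, 14 were tandem-pore channels and 8 were channels opened by calcium or sodium.

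BCL6 is a transcriptional repressor with a zinc finger DNA-binding domain. All mice were of the C57BL/6 strain and all tissue was quadriceps; no source used here gives their ages. For poly(A) RNA there were 5 knockouts that carried AEC-Esr Cre and floxed Bcl6 (Bcl6 fl/fl) and received tamoxifen, 4 tamoxifen-treated Bcl6 fl/fl mice with no Cre, and 4 mice with Cre and Bcl6 fl/fl that were given oil. RiboTag mice, which carry an HA-tagged ribosomal protein, supplied ribosome footprints and poly(A) RNA from 4 animals with AEC-Esr Cre, RiboTag and Bcl6 fl/fl and from 4 controls with AEC-Esr Cre and RiboTag whose label names no floxed Bcl6, all treated with tamoxifen. Acetylation of histone H3 at lysine 27, a mark of active promoters and enhancers (H3K27ac), was measured in 3 tamoxifen-treated knockouts and 3 tamoxifen-treated Bcl6 fl/fl mice with no Cre in each of 3 series. Nascent RNA came from wild-type mice given the BCL6 inhibitor FX1 or its solvent DMSO, with 5 libraries each, and BCL6 binding from 1 wild-type library. Cre-negative and oil-treated controls each differ from the knockouts in 1 respect (Cre or tamoxifen), the floxed allele is shared by all 3 of these groups, and the cells in which Cre acts are not named beyond the label. RiboTag animals are named here by their RNA library (RNA_11673 and so on), for footprints too, and the acetylation libraries of the third series as Ctr or mKO with a number. The footprint RNA was pulled down with anti-HA beads. For the RiboTag poly(A) RNA the labels list the same antibody, so its source, whole muscle or pull-down, is not settled.

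Potassium channels set the resting potential of muscle fibres and end the action potential. Voltage-gated pore subunits open on depolarization. Silent subunits form no channel alone and join other pore subunits, whose gating they alter. Inward rectifiers hold the membrane near rest, and one of them, Kcnj11, forms the pore of the ATP-sensitive channel of muscle, which couples excitability to energy state. Tandem-pore channels carry background leak, calcium-activated channels link calcium to repolarization, and auxiliary subunits change trafficking and kinetics.

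Libraries held 6.7e+06 to 7.6e+06 tags for poly(A) RNA, 6499561 to 13045854 counts for RiboTag poly(A) RNA, 3248807 to 4370468 counts for footprints, 1.4e+07 to 3.3e+07 tags for nascent RNA and 7794885 to 23016334 tags for H3K27ac. Bcl6 itself changed by -0.23 on the log2 scale against Cre-negative muscle (limma adjusted p = 0.0132), by -0.31 against oil (limma adjusted p = 0.00249), by 0.14 in RiboTag poly(A) RNA (edgeR adjusted p = 0.84) and by -1.12 in footprints (edgeR adjusted p = 0.00201). The deleted exons are not given in the sources used here and tags outside them count toward the gene, so these values are a limited check of the labels. Transcripts of muscle fibres (Acta1, Ckm, Myh4, Myh1, Tnnt3 and Ryr1) summed to 12810 to 21160 CPM (counts scaled to a common library size) in the RiboTag poly(A) libraries, against 601.7 to 779.8 for 5 smooth muscle markers and 702.5 to 863.8 for 6 endothelial markers. Fewer cells of a type and less RNA per cell cannot be told apart in any of these tissue measurements.

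In control muscle, inward rectifiers and voltage-gated pore subunits led the family. On the scale of CPM per exon kilobase in the 4 RiboTag control poly(A) libraries, Kcnj11 stood at 106.5, 126.1, 105.6 and 127.4, a mean of 116 ± 11.96 (SD, n = 4). Kcna7, a voltage-gated pore subunit, stood at 112 ± 11.95 (SD, n = 4), and the 2 genes overlapped, so their order is within their spread. Kcnc4, a fast voltage-gated pore subunit, followed at 70.6 ± 5.94 and did not overlap either of them. The silent subunit Kcng4 came next at 50.7 ± 15.7 and the inward rectifier Kcnj12 at 41.9 ± 8.28. From Kcnc4 down, each of the 10 highest members overlapped the next one in the order. Kcnc1, a further fast pore subunit, had 28.6 ± 6.29 and Kcnma1, the large-conductance calcium-activated channel, 17.4 ± 2.61. Kcnj8, the ATP-sensitive pore subunit of vascular smooth muscle and pericytes, had 16.7 ± 4.09 and Kcnn1, a small-conductance calcium-activated channel, 13.9 ± 2.02. Of the 20 highest members, 8 were voltage-gated pore subunits, 4 inward rectifiers, 3 calcium or sodium activated, 2 silent, 2 auxiliary and 1 tandem-pore. For 7 members no RiboTag poly(A) library held a count, and 23 members were tested in none of the 6 RNA-level comparisons because their values were too low.

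**Figure D1:**
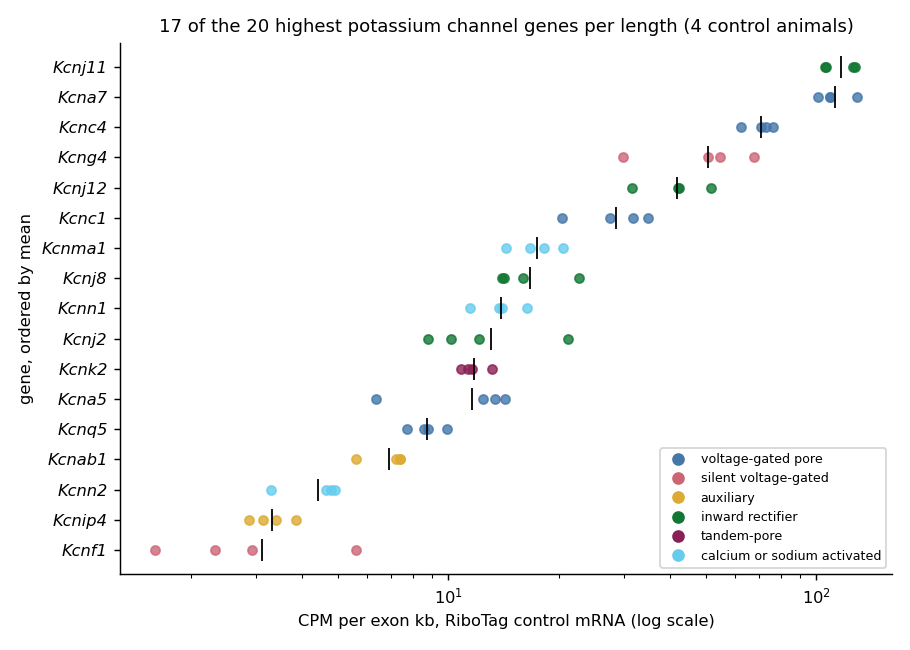
Levels of 17 of the 20 highest potassium channel genes in the 4 RiboTag control poly(A) libraries, in CPM per exon kilobase on a log axis; each point is 1 library and each tick the mean. Kcnj11 and Kcna7 overlap at the top with means of 116 and 112, above Kcnc4 at 70.6.

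Over the 4 knockout comparisons of RNA (poly(A) RNA against each control, RiboTag poly(A) RNA and footprints), 21 members passed the test at least once. A call means a Benjamini-Hochberg adjusted p below 0.05 over all genes tested. In the single comparisons, in the order above, 13.8%, 21.7%, 4.21% and 26.6% of all genes tested were called. The share of all genes called at least once, or in all 4, was not counted, so the count of 21 is no result about the family. A call in all 4 comparisons was made for few members: 3 of them, Kcng4, Kcnf1 and Kcnj12, fell in all 4, and 1 member, Kcng2, rose in all 4. Of these, Kcng4, Kcnf1 and Kcng2 are silent voltage-gated subunits and Kcnj12 is an inward rectifier. The knockout libraries are the same 5 in both poly(A) comparisons, so those 2 comparisons are not independent of each other.

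Kcng4 had the largest called fall among the members in each of the 4 knockout comparisons of RNA in these fits. Against Cre-negative muscle its deposited log2 values were 9.70, 9.46, 9.63 and 9.94 in the controls and 8.99, 9.02, 8.79, 8.59 and 9.04 in the knockouts. Against oil they were 10.14, 10.22, 10.32 and 10.19 in the controls and 9.07, 9.11, 8.86, 8.64 and 9.12 in the knockouts, with each pair of groups scaled in its own table. Every knockout library lay below every control library in both. The change was -0.79 (SE 0.10, limma adjusted p = 0.000101) against Cre-negative and -1.26 (SE 0.08, limma adjusted p = 3.89e-07) against oil. In RiboTag poly(A) RNA the controls held 115, 262, 212 and 196 CPM and the knockouts 47.2, 48.3, 38.3 and 33.3, a change of -2.23 (SE 0.22, edgeR quasi-likelihood adjusted p = 0.00017). In footprints the same animals held 51.9, 114, 93.9 and 117 against 28.9, 28.0, 24.2 and 22.5 CPM, a change of -1.86 (SE 0.22, edgeR adjusted p = 0.000275). The groups did not overlap in either, and the lowest control in both was animal RNA_11673. Translation efficiency, the footprint change beyond the RNA change, differed by 0.41 (edgeR adjusted p = 0.467). These calls held under each alternative run.

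Kcnf1, the lone member of its silent subfamily, was low in muscle and lower still in knockouts. Its log2 values were 6.87, 6.70, 6.88 and 7.12 in Cre-negative muscle and 6.19, 6.28, 6.27, 6.34 and 6.28 in knockouts. Against oil they were 6.51, 6.79, 6.55 and 6.98 in controls and 5.99, 6.10, 6.08, 6.18 and 6.10 in knockouts. The knockouts were lower throughout, and the changes were -0.62 (SE 0.06, limma adjusted p = 1.75e-05) and -0.62 (SE 0.08, limma adjusted p = 9.05e-05). RiboTag controls held 7.65, 14.04, 26.8 and 11.1 CPM of RNA and knockouts 3.83, 5.402, 3.61 and 6.80. Footprints were at 15.8, 19.3, 45.9 and 21.5 in controls and 5.12, 9.99, 8.36 and 7.12 in knockouts. Control RNA_11735 was the highest in both sets of libraries, and the groups still did not overlap. The changes were -1.59 (SE 0.36, edgeR adjusted p = 0.0269) and -1.73 (SE 0.34, edgeR adjusted p = 0.00325). The call in poly(A) RNA was lost without control RNA_11735 (-1.15, adjusted p = 0.0634), knockout RNA_11688 (-1.50, adjusted p = 0.0709) or knockout RNA_11721 (-1.49, adjusted p = 0.0846).

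Kcnj12, an inward rectifier abundant in muscle, fell by less. Its RiboTag poly(A) CPM were 145, 238, 193 and 194 in controls and 137, 133, 135 and 129 in knockouts, groups that did not overlap. In footprints they were 65.5, 96.9, 80.8 and 90.8 against 63.3, 55.7, 53.9 and 72.3, where the highest knockout passed the lowest control, animal RNA_11673. The changes were -0.53 (SE 0.12, edgeR adjusted p = 0.0335) and -0.44 (SE 0.14, edgeR adjusted p = 0.0306). Against Cre-negative and oil-treated muscle the log2 values differed by -0.14 (limma adjusted p = 0.00681) and -0.16 (limma adjusted p = 0.000689). The RiboTag call in RNA was lost on leaving out any 1 of the 8 animals except control RNA_11673, with adjusted p up to 0.0924, and that in footprints on leaving out any of 6 animals, that is all but control RNA_11673 and knockout RNA_11722, with adjusted p up to 0.129.

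Kcng2, a silent subunit of the same group as Kcng4, rose from a low level. Log2 values were 4.40, 4.43, 4.44 and 4.41 in Cre-negative muscle and 4.49, 4.48, 4.52, 4.55 and 4.59 in knockouts, a change of 0.11 (SE 0.02, limma adjusted p = 0.00294). Against oil the controls were at 4.48, 4.46, 4.49 and 4.47 and the knockouts at 4.56, 4.55, 4.60, 4.64 and 4.68, a change of 0.13 (SE 0.03, limma adjusted p = 0.00303). Every knockout was above every control. RiboTag poly(A) RNA held 1.03, 0.60, 0.87 and 1.85 CPM in controls and 2.94, 2.75, 5.69 and 3.84 in knockouts, and footprints held 2.39, 2.62, 1.65 and 1.84 against 11.5, 6.57, 12.1 and 8.30. The groups did not overlap here either, and the changes were 1.86 (SE 0.38, edgeR adjusted p = 0.0165) and 2.15 (SE 0.31, edgeR adjusted p = 0.000853). The poly(A) call in RiboTag RNA was lost without control RNA_11734 (1.66, adjusted p = 0.0525), control RNA_11735 (1.77, adjusted p = 0.0601), knockout RNA_11721 (1.60, adjusted p = 0.0515) or knockout RNA_11722 (1.83, adjusted p = 0.0513). The deposited log2 values of low genes lie close together, and in the authors' deposited table the log2 fold changes of Kcng2 were 0.65 and 0.75, those of Kcnf1 -1.51 and -1.46 and those of Kcng4 -0.78 and -1.39, against Cre-negative and oil.

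**Figure D2:**
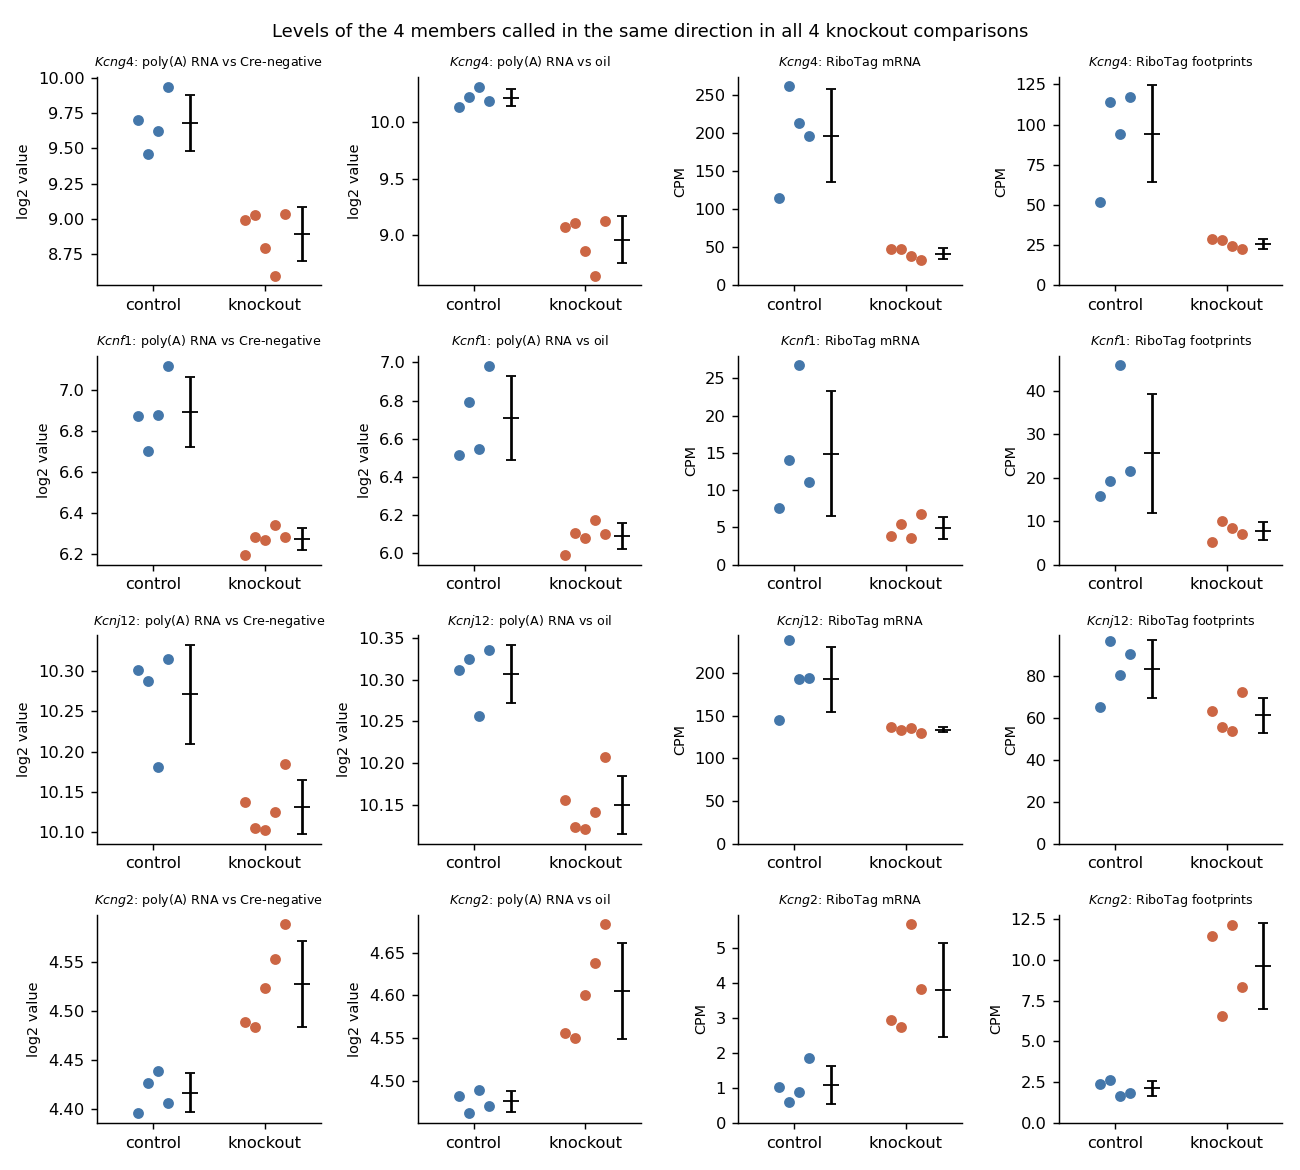
Kcng4, Kcnf1, Kcnj12 and Kcng2 by library in the 4 knockout comparisons, with the mean and SD of each group; the poly(A) panels show deposited log2 values on axes that do not start at 0, the RiboTag panels CPM from 0. The groups are apart in every panel but 2, Kcnj12 against Cre-negative muscle and Kcnj12 in footprints.

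The RefSeq table of promoters (build GRCm38.p6, the mm10 sequence that the files use) held 93 promoters for 68 of the 93 members. The 250 bases before the start are shown, 5′ to 3′ on the gene's strand, for the 3 members that fell in all 4 comparisons. They were picked by those calls, and whether they vary together was not tested. Kcng4 lies at chr8:119635681-119635930 (minus strand), Kcnf1 at chr12:17176889-17177138 (minus strand) and Kcnj12 at chr11:61065554-61065803 (plus strand). None of these bases lies under a BCL6 peak, so none is in capitals.
Kcng4 upstream sequence: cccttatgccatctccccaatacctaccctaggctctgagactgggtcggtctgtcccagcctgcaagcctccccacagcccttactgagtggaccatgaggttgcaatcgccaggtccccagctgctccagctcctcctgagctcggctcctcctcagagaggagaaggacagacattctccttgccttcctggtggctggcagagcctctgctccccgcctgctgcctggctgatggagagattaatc
Kcnf1 upstream sequence: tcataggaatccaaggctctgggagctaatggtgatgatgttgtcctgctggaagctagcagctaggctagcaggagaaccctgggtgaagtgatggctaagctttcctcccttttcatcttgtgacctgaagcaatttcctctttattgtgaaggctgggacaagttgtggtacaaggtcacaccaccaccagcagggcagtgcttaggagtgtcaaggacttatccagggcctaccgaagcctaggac
Kcnj12 upstream sequence: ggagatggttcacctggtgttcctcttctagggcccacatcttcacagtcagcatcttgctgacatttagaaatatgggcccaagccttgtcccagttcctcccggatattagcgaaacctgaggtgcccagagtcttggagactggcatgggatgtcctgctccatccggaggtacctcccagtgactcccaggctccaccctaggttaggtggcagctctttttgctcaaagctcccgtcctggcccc
The motif TTCCTNGAA, a core of the element that BCL6 and STAT proteins recognize, was searched on both strands. It was in none of these 3, and in 1 of the 93 member promoters (1.08%), that of the tandem-pore channel Kcnk4, against 522 of 32851 promoters in the table (1.59%). Windows in that count ran from 250 bases before to 50 after the start. Member promoters had a median GC content of 58.8% and a median of 7 CpG pairs, all promoters 52.4% and 6.

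Against Cre-negative muscle 14 of 53 members tested were called, 4 raised and 10 lowered, beside 13.8% of all 14969 genes tested (5.47% raised, 8.36% lowered). The median change was -0.00 for the members and 0.00 for all genes. The lowered members included Kcna7, Kcnc4 and Kcnc1, the 3 voltage-gated pore subunits with the highest levels per kilobase in control muscle. Kcnc1 was at 10.63, 10.62, 10.71 and 10.67 in controls and 10.45, 10.50, 10.50, 10.35 and 10.46 in knockouts, with no overlap, a change of -0.21 (SE 0.03, limma adjusted p = 0.000918). Kcna7 differed by -0.12 (limma adjusted p = 0.0047) and Kcnc4 by -0.16 (limma adjusted p = 0.00199), and neither overlapped. Kcnj11 differed by -0.10 (limma adjusted p = 0.0323) with groups that overlapped at control P1906, and Kcnj3, an inward rectifier near the floor of the table, by -0.03 (limma adjusted p = 0.0271). Kcnab1, an auxiliary subunit that binds voltage-gated pores, stood at 7.48, 7.42, 7.42 and 7.48 in controls and 7.29, 7.23, 7.15, 7.24 and 7.20 in knockouts. All of its knockouts were lower, a change of -0.23 (SE 0.03, limma adjusted p = 0.00019).

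Raised members were lower in level. Kcnq1, the pore of a slow delayed rectifier, was at 5.47, 5.42, 5.43 and 5.41 in Cre-negative controls and 5.601, 5.64, 5.57, 5.65 and 5.597 in knockouts, a change of 0.18 (SE 0.02, limma adjusted p = 0.000107) with no overlap. Its gene shares ground with the antisense transcripts Kcnq1ot1 and 4933417O13Rik, and poly(A) tags were counted on both strands, so their reads cannot be told apart. Kcne1l, an auxiliary subunit, differed by 0.10 (limma adjusted p = 0.00318). The Kcnj11 call was lost under quantile normalization (-0.02, adjusted p = 0.683), with no filter on low values, and without any of controls P1898, P1899 and P1909 and knockouts P1895, P1896 and P1911. The Kcna7 call was also lost under quantile normalization (-0.04, adjusted p = 0.264). Kcnj3 lost its call with a common variance prior (adjusted p = 0.148) and without control P1898 or P1906 or knockout P1900 or P1907.

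Against oil-treated muscle 13 of 53 members tested were called, 5 raised and 8 lowered, beside 21.7% of all 14971 genes (9.22% raised, 12.5% lowered). A count near that share is no result about the family. The median change was 0.00 for members and for all genes. In this table Kcnc1 was at 10.76, 10.81, 10.95 and 10.75 in controls and 10.48, 10.54, 10.53, 10.38 and 10.50 in knockouts, and its change was -0.33 (SE 0.04, limma adjusted p = 9.88e-05). Its groups were apart. Kcnc4 differed by -0.20 (limma adjusted p = 0.00164), Kcna7 by -0.14 (limma adjusted p = 0.000362) and Kcnj11 by -0.08 (limma adjusted p = 0.0243), while Kcnq1 differed by 0.25 (limma adjusted p = 1.87e-05) and Kcne1l by 0.12 (limma adjusted p = 0.00656). Kcnab1, called against Cre-negative muscle, had -0.05 here (limma adjusted p = 0.404), with groups that overlapped. Quantile normalization ended the Kcna7 call (-0.06, adjusted p = 0.0785) and turned the Kcnj11 value to 0.01 (adjusted p = 0.71). Kcnj11 also lost its call without control P1904 or knockout P1895.

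Kcnq5, a slow voltage-gated pore subunit, was called in opposite directions against the 2 controls. Cre-negative muscle had 9.03, 9.06, 9.08 and 9.09 and the knockouts 8.86, 8.88, 9.06, 8.82 and 8.92, a change of -0.16 (SE 0.04, limma adjusted p = 0.016). Oil-treated muscle had 8.66, 8.75, 8.68 and 8.58 and the same knockouts, scaled in that table, 8.78, 8.80, 8.99, 8.74 and 8.85, a change of 0.16 (SE 0.05, limma adjusted p = 0.0245). The groups overlapped in both, through knockout P1900 at 9.06 in the first and knockout P1907 at 8.74 in the second. Without the filter on low values neither was called (adjusted p = 0.0971 and 0.122), and the second was also lost without control P1910 (0.14, adjusted p = 0.0701). In RiboTag poly(A) RNA and footprints it did not pass the test.

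In all, 12 members were called against both poly(A) controls, 11 of them in 1 direction and Kcnq5 in both directions. The share of all genes called against both controls was not counted. Genes that work beside the channels were read from a list of 25 sodium, calcium, chloride and pacemaker channel subunits and potassium channel partners. Of 23 tested against Cre-negative muscle 0 were raised and 8 lowered, among them the muscle sodium channel Scn4a by -0.30, the calcium channel subunit Cacna2d1 by -0.24 and Abcc9, the sulfonylurea receptor that partners Kcnj8 and Kcnj11, by -0.22. Against oil 2 were raised, Hcn3 and Cacng1, and 11 lowered. Of 6 muscle fibre markers tested, 2 were lowered against each control, Ryr1 and Myh4, and 0 were raised. Ryr1 changed by -0.15 against Cre-negative muscle (limma adjusted p = 0.00537). The median of the 6 was -0.09 against Cre-negative muscle and -0.05 against oil. The part of fibre transcripts in the small falls of the members was not tested.

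**Figure D3:**
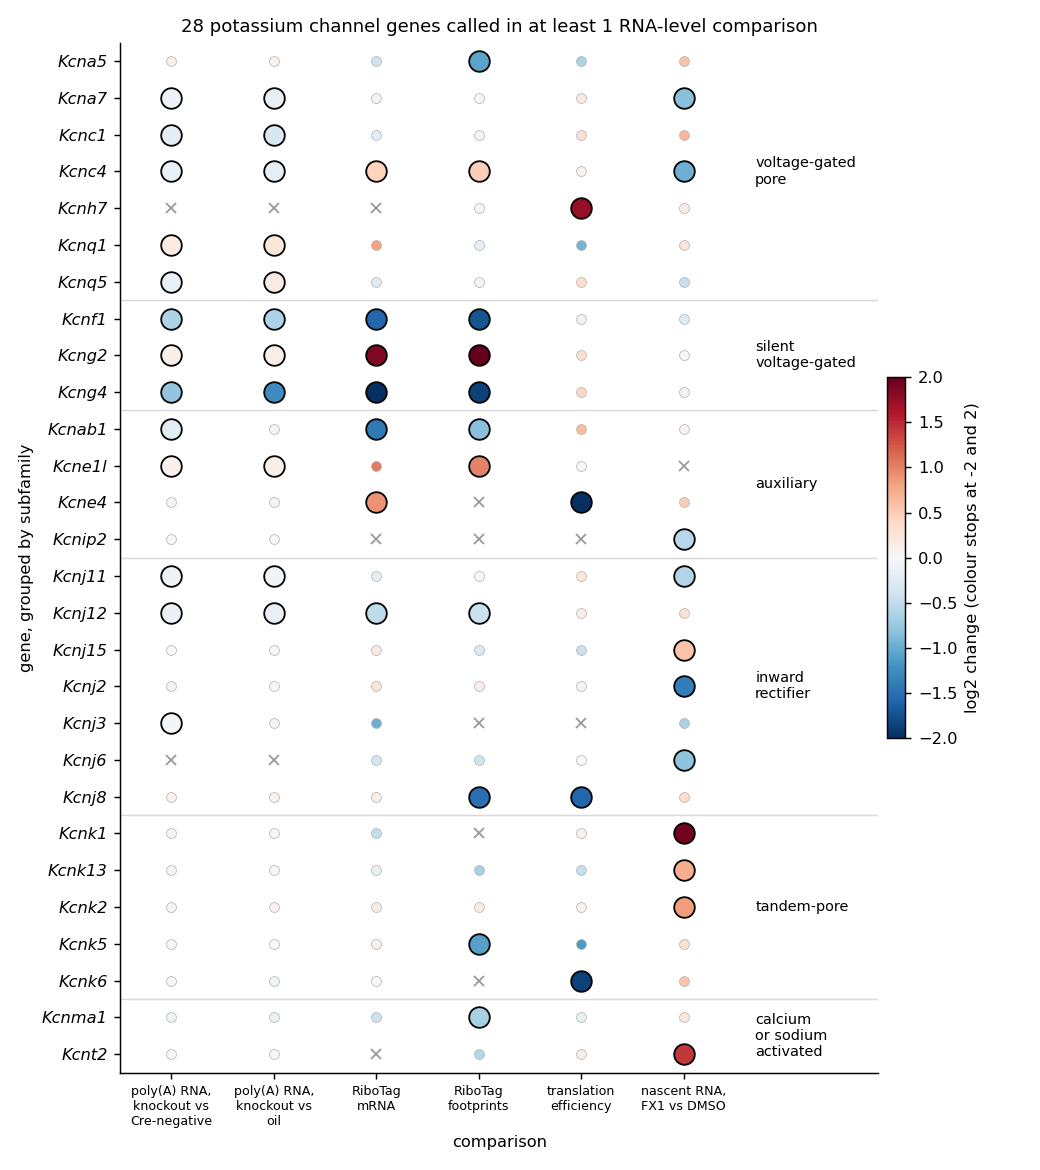
Log2 changes of 28 members called in at least 1 of 6 comparisons, as a colour capped at 2 in either direction; large outlined dots are called, small dots tested and not called, crosses not tested. Kcng4, Kcnf1 and Kcnj12 are lowered and Kcng2 raised in the first 4 columns, and the nascent RNA column shows 11 called members.

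In RiboTag poly(A) RNA 8 of 48 members tested were called, 3 raised and 5 lowered (16.7%), beside 4.21% of all 14476 genes (1.95% raised, 2.25% lowered). The median change was -0.01 for members and 0.01 for all genes. Kcnab1 held 20.2, 26.0, 26.6 and 26.6 CPM in controls and 11.2, 10.3, 7.22 and 8.33 in knockouts, far from overlapping, a change of -1.42 (SE 0.16, edgeR adjusted p = 0.000499). Its gene overlaps the antisense genes A730090N16Rik and A330015K06Rik. Kcne4, an auxiliary subunit that inhibits voltage-gated pores, was at 5.13, 5.92, 5.63 and 5.21 in controls and 9.91, 8.66, 9.30 and 13.03 in knockouts, a change of 0.90 (SE 0.18, edgeR adjusted p = 0.0163). All 4 knockouts were higher. Without knockout RNA_11722, the highest, the change was 0.74 (adjusted p = 0.0687), and the gene overlaps Gm29536 on the other strand.

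Kcnc4 went the other way from poly(A) RNA. RiboTag controls held 188, 219, 213 and 230 CPM and knockouts 326, 270, 312 and 256, a change of 0.46 (SE 0.10, edgeR adjusted p = 0.0248). Footprints held 119, 126, 142 and 130 against 202, 166, 186 and 172, a change of 0.49 (SE 0.09, edgeR adjusted p = 0.00284). The knockouts were higher in every animal of these 2 sets, whereas in poly(A) RNA every knockout was below every control, with 10.32, 10.33, 10.30 and 10.40 in Cre-negative muscle and 10.14, 10.16, 10.13, 10.21 and 10.24 in knockouts. The animals, the control genotype and the counting differ between the 2 designs, and the difference between them was not tested. The call in RiboTag poly(A) RNA was lost without control RNA_11673, RNA_11734 or RNA_11735 or knockout RNA_11688 or RNA_11721, with values of 0.39 to 0.46 and adjusted p up to 0.0933. That in footprints held in each alternative.

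Other abundant members did not pass in RiboTag poly(A) RNA. Kcnj11 was at 331, 392, 329 and 396 CPM in controls and 269, 338, 365 and 278 in knockouts (-0.21, edgeR adjusted p = 0.391), Kcna7 at 354, 381, 380 and 451 against 346, 383, 400 and 351 (-0.08, edgeR adjusted p = 0.728), and Kcnc1 at 158, 272, 214 and 247 against 139, 233, 210 and 179 (-0.22, edgeR adjusted p = 0.57). All 3 overlapped between groups. Kcnma1, at 86.9, 125, 111 and 101 against 69.8, 80.0, 70.8 and 88.4, had -0.45 (edgeR adjusted p = 0.0574). It was called by DESeq2 (adjusted p = 0.0114) and on leaving out control RNA_11673 (-0.55, adjusted p = 0.0149) or knockout RNA_11722 (-0.55, adjusted p = 0.0493). Kcnq1 had 0.80 (edgeR adjusted p = 0.0903, DESeq2 adjusted p = 0.0319) and Kcne1l 1.04 (edgeR adjusted p = 0.0872). Of the other named members, Kcnn1, Kcnn3, Kcnab2 and Kcnj2 had values between -0.15 and 0.23, and Kcne3 was too low to test. The count of called members was 3 without control RNA_11735, 4 without knockout RNA_11721 and 5 without control RNA_11734. The shares of all genes called in these refits are not given here, so the counts cannot be set against a background.

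In footprints 12 of 42 members tested were called, 4 raised and 8 lowered, beside 26.6% of all 12979 genes (10.9% raised, 15.7% lowered), a share near the background. The median change was -0.17 for members and 0.00 for all genes. Kcnab1 held 43.3, 47.2, 42.9 and 47.8 CPM in controls and 27.7, 24.3, 21.6 and 27.5 in knockouts, a change of -0.84 (SE 0.13, edgeR adjusted p = 0.00114) with groups well apart. Kcne1l was at 2.63, 1.19, 2.75 and 2.36 against 3.62, 3.43, 5.48 and 5.22, a change of 1.00 (SE 0.34, edgeR adjusted p = 0.0463), and this call was lost with DESeq2 (adjusted p = 0.0902), with no filter on low counts (adjusted p = 0.0773) and without any 1 animal except knockout RNA_11718, with adjusted p up to 0.139. Kcna7 (0.04), Kcnj11 (-0.01) and Kcnc1 (0.05) had footprint values in the knockouts within the spread of controls. Of the partner list, 1 was raised, Cacnb1 (0.51), and 3 were lowered, Scn4a (-0.42), Abcc9 (-0.37) and Hcn4 (-0.77), of 21 tested, while in RiboTag poly(A) RNA 0 were raised and 2 lowered, Tmem38b (-0.37) and Dpp6 (-1.52), of 21.

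The lowered members in footprints also included Kcnj8, Kcna5, Kcnma1 and Kcnk5. Kcnj8 was at 44.5, 20.5, 30.8 and 19.2 CPM in controls and 12.4, 13.7, 7.79 and 6.64 in knockouts, a change of -1.51 (SE 0.30, edgeR adjusted p = 0.00389). Kcna5, a voltage-gated pore of vascular muscle, was at 9.81, 19.3, 14.8 and 15.0 against 6.63, 7.42, 6.92 and 6.88, a change of -1.08 (SE 0.24, edgeR adjusted p = 0.0058). Both had all knockouts below all controls. Kcnma1 held 97.8, 121, 101 and 86.9 against 71.4, 52.8, 46.7 and 84.9, a change of -0.66 (SE 0.17, edgeR adjusted p = 0.0122) that was lost without control RNA_11734 (-0.55, adjusted p = 0.0509). Kcnk5, a tandem-pore leak channel, held 3.59, 6.91, 6.04 and 2.62 against 3.01, 1.43, 2.02 and 2.37, a change of -1.11 (SE 0.38, edgeR adjusted p = 0.0484). Its groups overlapped, and its call was lost with DESeq2 (adjusted p = 0.075), with no filter and without any animal except controls RNA_11673 and RNA_11745, with adjusted p up to 0.172.

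Markers of several cell types were lowered in these footprint libraries. Of muscle fibre markers 3 of 6 tested were lowered, Myh4, Myh1 and Acta1 (summed level 21660 to 25830 CPM in controls, 17800 to 18830 in knockouts, with no overlap). Of pericyte markers 5 of 5 tested were lowered (summed level 390.7 to 579 CPM in controls, 153.1 to 330 in knockouts), of endothelial markers 6 of 6 (354.5 to 641.2 against 124 to 323.2), of macrophage markers 6 of 6 (731.3 to 1015 against 257.8 to 613.5) and of fibroblast markers 5 of 5 (2329 to 3754 against 1313 to 2257). Of smooth muscle markers 2 of 4 tested were lowered, Myh11 and Acta2 (709.5 to 996.5 against 468.7 to 697.2), of Schwann cell and nerve markers 4 of 5 and of fat cell markers 3 of 4. None of the pericyte, endothelial or smooth muscle markers was at 0 in any library. In RiboTag poly(A) RNA the median changes of the fibre list and of these 7 lists lay between -0.19 and 0.11. Of T cell markers only Cd3e was tested. It was lowered in RiboTag poly(A) RNA (-1.87, edgeR adjusted p = 0.0115) and not called in footprints (-1.07, edgeR adjusted p = 0.0854). The part of these cells in the values of Kcnj8, Kcna5, Kcnma1 and Kcnk5 was not tested.

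Translation efficiency was called for 4 of 59 members tested, 1 raised and 3 lowered, beside 9.91% of all 14935 genes (2.93% raised, 6.98% lowered), and the median was -0.05 for members and 0.05 for all genes. Kcnj8 had 57.7, 35.5, 40.6 and 36.0 CPM of RNA in controls and 40.8, 39.96, 59.4 and 44.9 in knockouts, which overlapped, beside the lower footprints above, and its efficiency changed by -1.59 (SE 0.35, edgeR adjusted p = 0.012). With the animal as a block it was -1.55 (adjusted p = 0.00509), and it was lost without knockout RNA_11721 (-1.35, adjusted p = 0.0607) or RNA_11722 (-1.43, adjusted p = 0.052). Kcne4, whose RNA rose, had footprints of 1.91, 5.002, 4.67 and 1.05 against 1.21, 2.85, 0.29 and 0.95 and an efficiency change of -2.12 (SE 0.60, edgeR adjusted p = 0.0322, with the block 0.0438). Kcnk6, a tandem-pore channel, changed by -1.87 (edgeR adjusted p = 0.036, with the block 0.065) on footprints of 4.07, 3.10, 1.099 and 3.41 against 0.30, 1.71, 0.58 and 0.47. Kcnh7, a pore subunit of the ether-a-go-go-related group, changed by 1.74 (edgeR adjusted p = 0.0479, with the block 0.0786) on RNA of 1.49, 0.90, 1.26 and 0.34 against 0.29, 0.10, 0.33 and 0.51 and footprints of 6.94, 6.91, 8.24 and 7.35 against 5.73, 6.57, 9.23 and 8.54. These last 3 rest on few counts. With the animal as a block 4 members were called again, 2 raised and 2 lowered, of which Kcnj8 and Kcne4 were shared, and Kcnab1 was called as well (0.63, edgeR adjusted p = 0.0482). Leaving out knockout RNA_11721 or RNA_11722 left 0 called, control RNA_11734 or knockout RNA_11688 left 1, and control RNA_11673 or RNA_11735 left 2. No share of all genes is given here for these refits. Endothelial markers were lowered in efficiency at 6 of 6 (median change -1.55) and pericyte markers at 4 of 5 (-1.44). Fibroblast markers were lowered at 4 of 5 (-0.93) and smooth muscle markers at 2 of 5 (-0.71). Macrophage markers were lowered at 1 of 6 (-1.20), Schwann cell and nerve markers at 1 of 6 (-0.76) and fat cell markers at 0 of 5 (-1.06). For muscle fibre markers it was 0 of 6 (-0.08) and for T cell markers 0 of 2 (0.33). The part of these cells in the efficiency values of the members was not tested. In the authors' deposited table of translation efficiency the log2 fold change was -2.03 for Kcnj8, -2.36 for Kcne4 and -2.004 for Kcnk6. Kcnh7 had no value there. Kcnn3 (1.17), Kcnip3 (3.27), Kcnn4 (-1.94) and Kcna2 (-1.63) had an adjusted p below 0.05 in that table and were not called here.

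FX1 was compared with DMSO in nascent RNA, which is counted over gene bodies and reads transcription rather than stored RNA. Of 60 members tested 12 were called, 5 raised and 7 lowered, beside 21.7% of all 15053 genes (11.1% raised, 10.6% lowered), a share near the background, and the median was -0.02 for members and 0.00 for all genes. Of 8 inward rectifiers tested, 3 were lowered and 1 was raised. Counts by subfamily were not tested. Kcnj2, the main resting-potential channel of muscle, was at log2 values of 10.75, 10.32, 10.27, 10.73 and 10.50 under DMSO and 8.40, 9.17, 10.17, 9.22 and 8.72 under FX1, a change of -1.38 (SE 0.27, limma adjusted p = 0.00468). All FX1 libraries were lower, and FX1 library 3 was close to the DMSO range. Kcnj6, better known from brain, differed by -0.80 (limma adjusted p = 0.0157) with no overlap, and Kcnj11 by -0.60 (limma adjusted p = 0.0444).

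Among voltage-gated pore subunits, Kcnc4 had 7.92, 7.66, 7.84, 8.15 and 7.78 under DMSO and 6.72, 6.73, 6.93, 7.19 and 6.92 under FX1, a change of -0.97 (SE 0.13, limma adjusted p = 0.000532). Kcna7 had 9.08, 9.02, 9.05, 9.29 and 9.12 against 8.22, 7.97, 7.94, 8.69 and 8.58, a change of -0.83 (SE 0.15, limma adjusted p = 0.00346). The groups were apart for both. Kcnip2, a calcium-binding auxiliary subunit, differed by -0.55 (limma adjusted p = 0.0279), with overlap. Its call, like those of Kcnj11 (up to 0.0992), Kcnj15 (up to 0.0967) and Kcnk13 (up to 0.072), was lost with no filter on low values and on leaving out several libraries, with adjusted p up to 0.0733 for Kcnip2.

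Of 8 tandem-pore channels tested, 3 were raised and 0 lowered. Kcnk1, a leak channel, was at 6.71, 6.94, 6.92, 6.83 and 6.52 under DMSO and 8.81, 10.17, 8.06, 8.09 and 8.47 under FX1, a change of 1.93 (SE 0.33, limma adjusted p = 0.00258). Kcnk2, a stretch- and lipid-sensitive leak channel, was at 7.61, 7.88, 7.88, 8.06 and 7.74 against 8.72, 8.43, 8.21, 8.98 and 9.01, a change of 0.84 (SE 0.16, limma adjusted p = 0.00437). Kcnt2, opened by sodium, was at 9.44, 9.96, 9.92, 9.24 and 9.80 against 10.83, 11.12, 10.20, 11.67 and 11.58, a change of 1.41 (SE 0.26, limma adjusted p = 0.00354). All 3 had every FX1 library above every DMSO library. Kcnk13 differed by 0.73 (limma adjusted p = 0.0291) and the inward rectifier Kcnj15 by 0.56 (limma adjusted p = 0.0414), both with overlap. Kcnt2 overlaps 4930590L20Rik and Kcnj15 overlaps Gm31641 on the other strand.

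The members called in all 4 knockout comparisons were not called here. Kcng4 was at 9.26, 9.18, 9.07, 9.29 and 9.23 under DMSO and 8.71, 9.36, 10.16, 9.17 and 8.92 under FX1 (0.06, limma adjusted p = 0.881), a scatter in which FX1 library 3 was the highest. Kcnf1 differed by -0.26 (limma adjusted p = 0.577). Kcnc1 had 11.06, 11.02, 11.12, 11.39 and 11.19 against 12.65, 12.70, 10.81, 11.33 and 11.64 (0.67, limma adjusted p = 0.156), with FX1 library 3 the lowest of all. Without that library 20 members were called, Kcnc1 among them (0.92, limma adjusted p = 0.0226). The share of all genes called in that refit is not given here, so this count is no result about the family. The authors' deposited table gives Kcnc1 a log2 fold change of 1.05 and Kcne4 one of 1.35. Muscle fibre markers were lowered at 4 of 6 under FX1 (Ryr1, Ckm, Myh1 and Acta1; summed level 600200 to 810900 under DMSO and 295600 to 531100 under FX1), of the partner list 11 of 22 were lowered, among them the calcium channel Cacna1s by -1.82, the chloride channel Clcn1 by -1.74 and the auxiliary subunit Lrrc38 by -1.68, and 0 were raised. The part of the general fall in fibre transcripts in the lowered members was not tested.

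**Figure D4:**
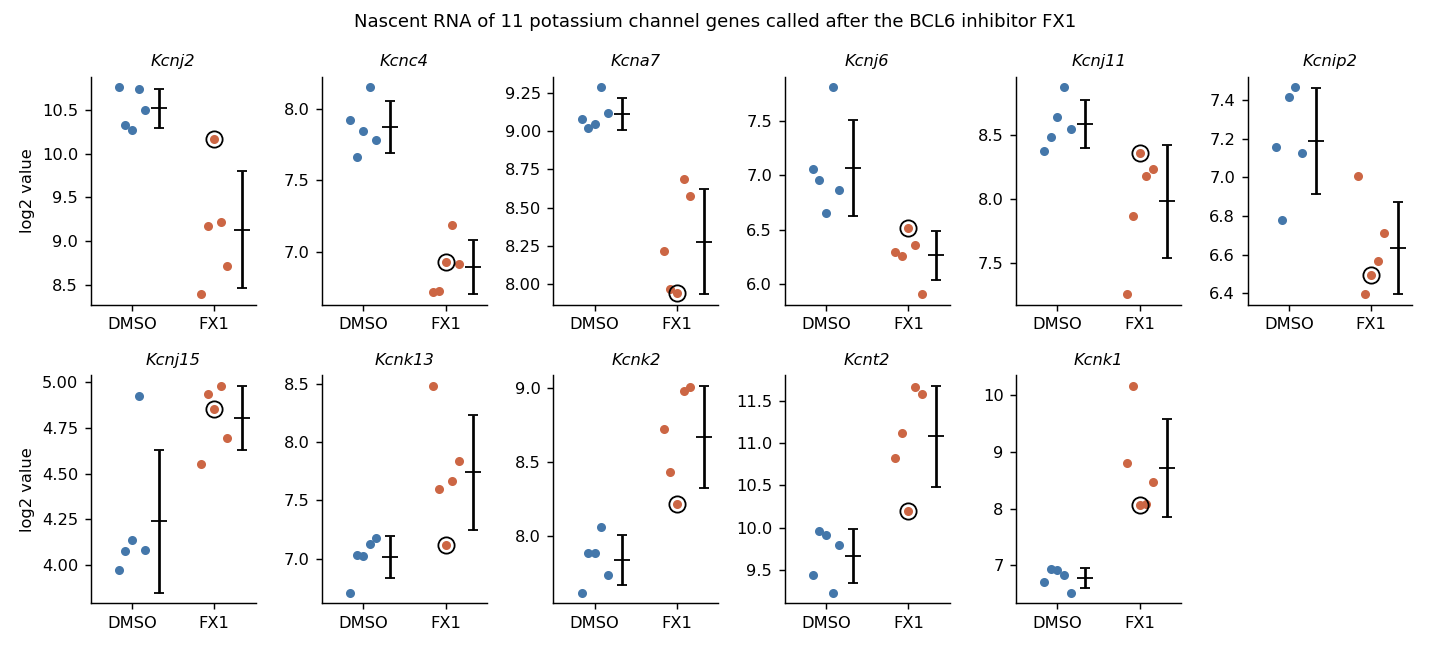
Nascent RNA of 11 of the called members, as deposited log2 values, by library under DMSO and FX1, with FX1 library 3 circled. Kcnj2, Kcnc4 and Kcna7 lie lower and Kcnk1, Kcnk2 and Kcnt2 higher in every FX1 library, by -1.38, -0.97, -0.83, 1.93, 0.84 and 1.41.

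BCL6 peaks, from 1 library of wild-type muscle, were assigned to 30 of the 93 members (32.3%), 58 peaks in all, against 25.6% of 20777 genes. Counting only peaks within 10000 bp of a start gave 14% of members against 14.7% of genes, and within 1000 bp 3.23% against 7.3%. Of these peaks 41 lay in introns, 12 between genes, 2 in promoters, 2 in exons and 1 in a 3′ UTR by the authors' annotation. Peak scores, given by the authors on a scale that is not named, had a median of 24.5 for members and 23.3 for the list of 10925 peaks. The highest was 113.9 at Kcnma1 (chr14:23966427-23966647, intron 1 of 28, 37668 bp from the start), which had 8 peaks. Kcnj11 had 5 peaks with a highest score of 73.5 and Kcnj12 5 with a highest score of 72.3 at -4933 bp from the start. Kcng4 had 0. Peaks were assigned to 21 of the 48 members with enough RiboTag RNA to be tested (43.8%) and to 9 of the 45 others (20%). Among members tested in the knockout comparisons, 9 of 15 lowered (60%), 6 of 8 raised (75%) and 12 of 45 never called (26.7%) had one. Kcnc4 and Kcnq5, each with a peak, count among both the lowered and the raised. The same shares over all genes were not counted, so these shares say nothing particular to the members. No test was made of them.

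Within 1000 bp of a start lay 3 member peaks, at Kcnt2 (51 bp), Kcnc1 (270 bp upstream) and Kcnj11 (436 bp, in exon). The 250 bases before the RefSeq start are shown for the first pair because a peak reaches into them, with capitals for the bases under it. Kcnc1 lies at chr7:46396218-46396467 (plus strand, 91 bases under the peak) and Kcnt2 at chr1:140245468-140245717 (plus strand, 59 bases under the peak).
Kcnc1 upstream sequence: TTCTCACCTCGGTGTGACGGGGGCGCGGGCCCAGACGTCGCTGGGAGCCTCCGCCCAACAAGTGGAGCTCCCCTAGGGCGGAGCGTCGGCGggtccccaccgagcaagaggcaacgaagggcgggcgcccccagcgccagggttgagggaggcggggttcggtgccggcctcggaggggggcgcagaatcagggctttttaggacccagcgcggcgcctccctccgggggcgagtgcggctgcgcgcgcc
Kcnt2 upstream sequence: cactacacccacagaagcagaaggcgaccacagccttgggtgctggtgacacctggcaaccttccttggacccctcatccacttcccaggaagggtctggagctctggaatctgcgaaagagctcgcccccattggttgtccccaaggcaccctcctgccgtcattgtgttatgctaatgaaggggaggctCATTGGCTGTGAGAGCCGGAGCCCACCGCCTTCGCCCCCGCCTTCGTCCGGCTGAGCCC
Neither holds the motif searched above. Kcnc1 has 74.4% GC and 30 CpG pairs in these bases and Kcnt2 61.6% and 10. Both peaks scored 17.2, below the median of the list.

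In the first 2 acetylation series, which the headers call acute (1 week) and chronic (12 weeks), 277 regions were annotated to 58 members, 34 of them to Kcnma1. Of 266 tested in the acute series 0 were called by limma, beside 0.0979% of all 71480 regions (0.0937% raised, 0.0042% lowered). At an unadjusted p below 0.05 there were 31 member regions (11.7%, 20 higher and 11 lower), beside 7.83% of all regions (4.54% higher, 3.29% lower). Of 260 tested in the chronic series 0 were called, beside 0.178% of all 67918 (0.166% raised, 0.0118% lowered). At an unadjusted p below 0.05 there were 27 (10.4%, 19 higher and 8 lower), beside 6.85% of all regions (4.28% higher, 2.57% lower). Regions of 1 gene are not independent of each other. edgeR on whole tags recovered from the signal, chosen after seeing the data, called 2 acute regions, at Kcnj11 and Kcnd3, and 3 chronic regions, at Kcnj11, Kcnc4 and Kcnq1. The region at Kcnj11 was the same in both. It lies at -11000 bp from the start, in an intron of a neighbouring gene (chr7:46111501-46112028), and had an acute signal of 27.18, 30.11 and 45.41 in controls and 69.77, 55.64 and 82.31 in knockouts (1.01, limma adjusted p = 0.0594), and a chronic signal of 31.35, 15.39 and 29.54 against 54.55, 86.04 and 48.07 (1.29, limma adjusted p = 0.126). The knockouts were above the controls in both. With edgeR on recovered tags the changes were 1.02 (adjusted p = 0.0204) and 1.25 (adjusted p = 0.00998), and it was also called in both series with a pseudocount of 5 and under quantile normalization. It was chosen after its values were seen.

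At the starts, 24 regions lay within 1 kb of 22 members, with 2 at an unadjusted p below 0.05 in each series (8.33%), a share near the 7.83% and 6.85% of all acute and chronic regions. The region at the start of Kcnf1 (399 bp, 5′ UTR) had 10.19, 18.53 and 14.42 in acute controls and 5.29, 6.27 and 3.37 in knockouts, which were all lower (-1.36, limma adjusted p = 0.373), but 14.18, 7.70 and 5.65 against 7.09, 8.83 and 7.59 in the chronic series (-0.12, limma adjusted p = 0.978). Nearest to the start of Kcng4, at -1398 bp, the acute signal was 15.29, 23.16 and 18.02 against 13.21, 18.81 and 22.14 (-0.07, limma adjusted p = 0.981) and the chronic one 22.39, 12.83 and 29.11 against 19.64, 16.55 and 14.55 (-0.26, limma adjusted p = 0.914). The groups overlapped in both. At the start of Kcnj12 (251 bp) the changes were 0.11 and 0.13, with overlap.

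In the third series, windows of 1000 bp on BCL6 peaks were counted in mice whose numbers match the poly(A) RNA libraries. Of 58 windows at 30 members, 40 at 18 members passed the filter, and 12 were called, 10 raised and 2 lowered (30%), beside 18.1% of all 9080 windows (16.7% raised, 1.44% lowered). The median was 0.31 for member windows and 0.14 for all, so values are best read against that shift. Under quantile normalization, which moves the median of all windows to -0.06, 6 member windows were raised and 3 lowered, the added one at Kcnj11 (-0.33, adjusted p = 0.0453), and edgeR on recovered tags, chosen after seeing the data, gave 6 and 2. The 12 windows lay at 8 members, 7 raised and 1 lowered. Without knockout mKO_1900 or mKO_1907 7 windows were called, and the share of all windows called in these refits is not given here.

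Kcnb2, a voltage-gated pore subunit, had 3 of the raised windows in its second intron. Its strongest (chr1:15471214-15472214, 184789 bp from the start) had a signal of 14.66, 19.91 and 23.37 in controls and 66.68, 67.33 and 93.52 in knockouts, a change of 1.93 (SE 0.21, limma adjusted p = 2.62e-05). A window 495 bp away, overlapping the first, changed by 1.51 (limma adjusted p = 0.000264), and one at 194457 bp by 1.79 (limma adjusted p = 0.02) from 0.67, 0.91 and 5.72 to 10.03, 8.36 and 7.50. The knockouts were above the controls in all 3. The last of them was lost with edgeR on recovered tags (adjusted p = 0.0722) and without control Ctr_1899 (1.51, adjusted p = 0.0933) or knockout mKO_1907 (1.87, adjusted p = 0.057). Kcnb2 RNA was too low to test in poly(A) RNA and RiboTag poly(A) RNA. It was tested and not called in footprints (0.23), translation efficiency (-1.61, edgeR adjusted p = 0.248) and nascent RNA under FX1 (-0.25). The efficiency value rests on 18 RNA counts over all RiboTag libraries.

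Of the 4 members called in all 4 RNA comparisons, Kcng2 and Kcnf1 had called windows, Kcnj12 had none called and Kcng4 had no peak. At Kcng2, at -8795 bp from the start, controls had 105.28, 144.38 and 138.31 and knockouts 212.44, 221.81 and 214.05, a change of 0.75 (SE 0.12, limma adjusted p = 0.000778). At Kcnf1, the window 2474 bp from the start (chr12:17173914-17174914, 3′ UTR of its single exon) had 43.98, 36.21 and 25.28 against 8.26, 16.28 and 17.50, a change of -1.30 (SE 0.29, limma adjusted p = 0.00616). The window at 1139 bp (chr12:17175249-17176249, exon) had 29.98, 18.10 and 9.54 against 7.08, 6.60 and 7.50, a change of -1.19 (SE 0.35, limma adjusted p = 0.0278). No groups overlapped in these 3 windows. The third window of Kcnf1 had 0.15 (limma adjusted p = 0.761). The 5 windows tested at Kcnj12 had values of -0.10 to 0.69, 3 above 0 and 2 below (limma adjusted p of 0.123 to 0.98). The call at 1139 bp of Kcnf1 was lost without control Ctr_1898 (-0.82, adjusted p = 0.121), control Ctr_1899 (-1.17, adjusted p = 0.0986), knockout mKO_1900 (-1.15, adjusted p = 0.0784) or knockout mKO_1907 (-1.23, adjusted p = 0.0727).

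Further raised windows were at Kcnj6 (0.57, limma adjusted p = 0.00824), at Kcnma1 on the peak with the score of 113.9 (0.73, limma adjusted p = 0.0107), at the silent subunit Kcns1 (0.62 and 0.69, limma adjusted p = 0.0266 and 0.0138) and at Kcnj2 (0.82, limma adjusted p = 0.0354). Groups were apart at each. Quantile normalization ended the calls at Kcnma1 (0.51, adjusted p = 0.0552), Kcns1 (0.39 and 0.46, adjusted p = 0.168 and 0.109) and Kcnj2 (0.61, adjusted p = 0.119). edgeR on recovered tags ended those at Kcns1 (adjusted p = 0.0985 and 0.0661) and Kcnj2 (adjusted p = 0.0861). Leaving out knockout mKO_1900 or mKO_1907 ended the Kcnma1 call (0.67 and 0.70, adjusted p = 0.0552 and 0.0551).

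**Figure D5:**
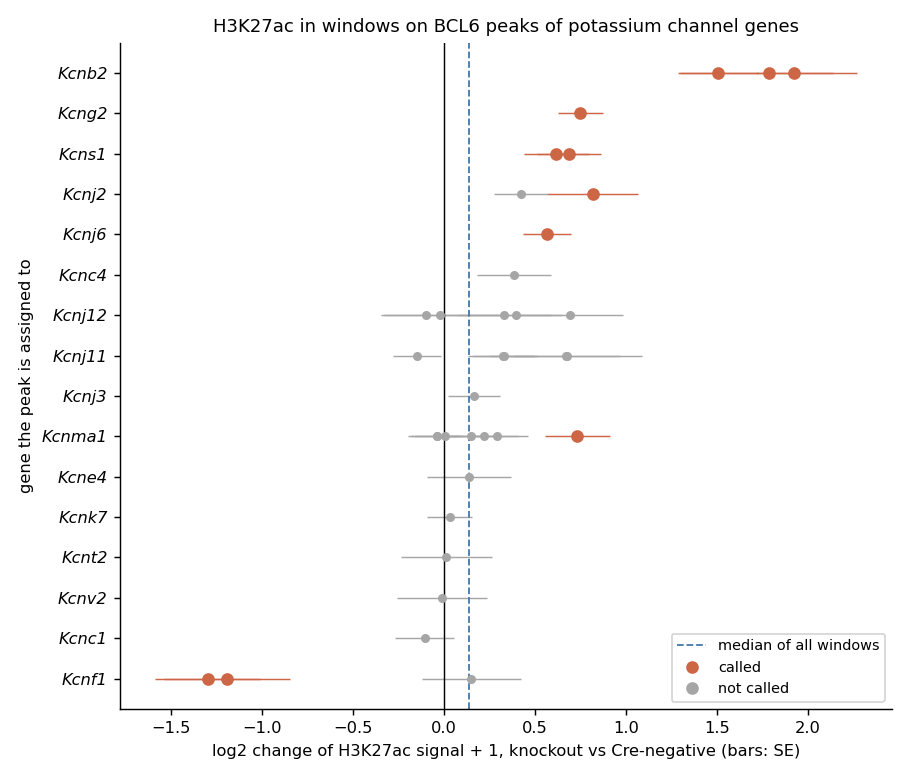
Log2 change in H3K27ac signal, knockout against Cre-negative, with its SE, for 36 of the 40 member windows tested on BCL6 peaks, by gene; the dashed line is the median of all windows, 0.14. The windows at Kcnb2 lie highest, at up to 1.93, and those at Kcnf1 lowest, at down to -1.30.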

How the data were processed

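Mouse quadriceps was profiled by poly(A) RNA, RiboTag poly(A) RNA and footprint, nascent RNA, H3K27ac and BCL6 sequencing. The submitters' processing notes name the build mm10 and the tools STAR 2.4.0, Bowtie 1.2, HOMER and DESeq2 1.14.1, and tie none of them to a file. For poly(A) and nascent RNA the authors deposited log2 values of tags in exons or gene bodies, per the file headers, by a transform that is not named, so log2 sizes are not comparable between tables and those of low genes are compressed. Deposited counts in the RiboTag tables are tags on genes, with at most 5 per position per the file headers. The deposited H3K27ac signal counts the tags of a region on a scale of 1e+07 per library, from which whole tags were recovered for 100% of values (tolerance 0.05). BCL6 peaks carry a deposited score from 1 library. Log2 fold changes, adjusted p-values and p-values of the authors' deposited tables are quoted only where named.

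edgeR 4.0.16 was run on counts (quasi-likelihood test, TMM, filterByExpr, minimum count 10), with a genotype-by-library-type interaction for translation efficiency. Log2 values were tested with limma 3.58.1 (trended variance; genes above the 40th percentile of the table in at least 4 libraries), and signal with limma on log2(signal + 1) at a mean of at least 5, all with Benjamini-Hochberg adjustment over every feature tested and a threshold of 0.05. CPM values are scaled by TMM. A fold change is on the log2 scale throughout. Alternatives were DESeq2 1.42.0, other size factors, no low-value filter, quantile normalization, a common variance prior, a pseudocount of 5, blocks, leaving out each library and, chosen after seeing the data, edgeR on recovered tags. The main fits were first checked on simulated counts or values, except those against oil and those of the acute and chronic series. The alternatives were not checked in this way. R 4.3.3 and Python 3.11.15 were used.

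Named members are those called in at least 1 of 6 RNA-level comparisons, the 10 with the highest level per exon length, a set of muscle members and those with a BCL6 peak within 1000 bp of the start, 35 in all, some of which are not reported here; they stay in the counts. Members, subfamilies, partner and marker lists were chosen with earlier results of these data known, the fall of Kcng4 among them. Groups came from the labels. RiboTag numbers name animals, so footprints and RNA of 1 number are paired; the correlations of their deviations ran from -0.0257 to 0.349. For other libraries the labels do not say that each is a separate animal, and p-values measure the spread between these libraries. Chronic RNA, input and wild-type H3K27ac libraries were not used here. Genes on overlapping strands cannot be told apart in the poly(A) tables.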

Additional observations from a re-analysis of the deposited data

Results flagged for a closer look

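In 106 groups of 4 or 5 libraries of called members, 2 held a library far from the others; chance flags about 1 in 20. Kcnab1 in RiboTag poly(A) RNA was lowest in control RNA_11673, at 20.2 CPM against 26.0 for the nearest control, and still above every knockout. Under DMSO, nascent RNA of Kcnj15 was highest in library 4, at a log2 value of 4.93 against 4.14 for the next.

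Kcnc4 was lower in every poly(A) knockout than in every control (-0.16 against Cre-negative and -0.20 against oil) and higher in every RiboTag knockout than in every control (0.46 in poly(A) RNA and 0.49 in footprints). Kcnq5 was lower against Cre-negative muscle (-0.16) and higher against oil (0.16). Neither difference was tested.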

How the results depend on the processing

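Calls numbered 75, each of a member in an RNA-level comparison or of 1 of the 12 windows called on BCL6 peaks. Of the 75 calls, 42 held under every alternative run and 33 were lost under at least 1. Of those 33, 12 were lost only on leaving out a library. The 1 value that changed sign was Kcnj11 against oil, at 0.012 under quantile normalization. On leaving out 1 library, called members ranged from 12 to 14 against Cre-negative, 12 to 14 against oil, 3 to 8 in RiboTag poly(A) RNA, 9 to 13 in footprints, 0 to 5 in translation efficiency and 8 to 20 in nascent RNA, and called regions from 0 to 1 in the acute series, 0 to 2 in the chronic series and 7 to 12 in windows. The shares of all genes or regions called in these refits are not given here, so the ranges are no result about the family. In place of 0 acute regions, a pseudocount of 5 gave 1, quantile normalization 1 and edgeR on recovered tags 2; in place of 0 chronic regions these gave 2, 2 and 3. Members with a BCL6 peak numbered 18 at scores of the list median or above (19.4%, all genes 16.6%), 13 within 10000 bp of a start (14%, all genes 14.7%) and 3 within 1000 bp (3.23%, all genes 7.3%), in place of 30. DESeq2 called 961 genes in RiboTag poly(A) RNA in place of 609. Nascent libraries of 1 number share only a number (correlations of -0.429 to 0.175, with 1 of 5 closest to its own number). With the number as a replicate block 12.6% of genes were called in place of 21.7%, and 10 members in place of 12, all 10 among the 12; Kcnip2 (adjusted p = 0.06) and Kcnk13 (adjusted p = 0.0741) were lost. With the animal as a replicate block in translation efficiency 4 members were called, as without it, and 2 were shared. Low counts limit Kcng2, Kcne4, Kcnk5, Kcnk6 and Kcnh7, and 23 members could not be tested in RNA.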
